A study of Bombyx mori with 4 samples.

Results

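The protein-coding mRNAs that carried the most BmVasa reads in silkworm (Bombyx mori) BmN4 cells are described here. Members were selected on their measured level: sequences not annotated as transposons whose mean over the Spn-E KD and Luc KD libraries reached 100 RPM (reads per 1000000 genome-mapped reads). Of 14300 protein-coding sequences in a table of 18596, 191 met this rule. BmN4 is a cultured line derived from silkworm ovary. The cells had been electroporated with siRNA against Spindle-E (Spn-E KD) or, as the control, with siRNA against luciferase (Luc KD). BmVasa-bound RNA was obtained from 2 replicates per group by FAST-iCLIP, in which ultraviolet light links protein to RNA before immunoprecipitation and sequencing. The replicates of each group were merged in the deposited table, so every value below is that of 1 pooled library and no difference has a replicate check.

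Vasa is a DEAD-box RNA helicase and a defining protein of germ cells in many animals. It sits in nuage, a membraneless granule at the nuclear envelope where transposon RNA is met by PIWI proteins loaded with piRNAs, and in silkworm these PIWI proteins are Siwi and Ago3. Spn-E is a helicase of the same pathway, and its loss in BmN4 cells is known to lower the amount of Siwi carrying piRNAs. Messenger RNAs of ordinary genes are also recovered with BmVasa, and reads on an mRNA depend on how much of it is present, how much of that is bound and how long it is. The amount of each mRNA was not part of this table, so more mRNA and more binding per mRNA cannot be told apart.

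The members are known only by the numbers of their SilkBase gene models. None of the 14300 protein-coding identifiers (0) was found in the RefSeq gene table of silkworm, so neither gene names, functions, positions nor sequences are given, and the depletion of Spn-E could not be checked. The libraries were of similar size, with 1059323 genome-mapped reads in Spn-E KD and 1012269 in Luc KD, so that 1 read corresponded to 0.944 RPM in Spn-E KD and 0.988 RPM in Luc KD. Members were covered by 84 to 1634 reads in Spn-E KD (median 168) and by 50 to 1888 in Luc KD (median 191). At this depth the 95% Clopper-Pearson interval of a member's log2 ratio had a median half-width of 0.32, with a range from 0.0996 to 0.47. All intervals cover counting error only.

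The 191 members held a large part of the protein-coding reads. They took 49091 of 156672 protein-coding reads in Spn-E KD, or 31.3% (95% Wilson interval 31.1 to 31.6), and 55867 of 180265 in Luc KD, or 31.0% (30.8 to 31.2). Relative to the other protein-coding sequences they thus kept nearly the same weight, with a difference of 0.34 percentage points (95% Newcombe interval 0.029 to 0.66). Of all gene-library reads, transposons included, they took 12.2% (12.1 to 12.3) in Spn-E KD and 14.5% (14.4 to 14.7) in Luc KD, which was 2.37 points lower in Spn-E KD (interval of the difference −2.52 to −2.22). The most covered transposon sequence, of 9536 nt, took 110071 of the gene-library reads in Spn-E KD and 69130 in Luc KD. Without it, the share of the members was 16.8% in Spn-E KD and 17.7% in Luc KD, a difference of −0.99 points (−1.18 to −0.80). Summed over the members, the level was 46342 RPM in Spn-E KD and 55190 RPM in Luc KD, a log2 ratio of −0.25 (−0.27 to −0.23). The 14109 remaining protein-coding sequences had a log2 ratio of summed RPM of −0.28 (−0.29 to −0.26).

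Reads were spread unevenly over the members. Mean levels ran from 101 to 1584 RPM, a 15.7-fold range, with a median of 169 RPM and quartiles of 128 and 298 RPM. Only 6 members reached 1000 RPM and 20 reached 500 RPM, while 111 lay under 200 RPM. The 10 most strongly bound took 22.6% of all member reads in Spn-E KD (22.3 to 23.0) and 23.7% in Luc KD (23.4 to 24.1). The 47 members at 300 RPM or more took 53.6% in Spn-E KD (53.1 to 54.0) and 54.7% in Luc KD (54.2 to 55.1). Levels per library ran from 79.3 to 1542 RPM in Spn-E KD and from 49.4 to 1865 RPM in Luc KD.

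**Figure D1:**
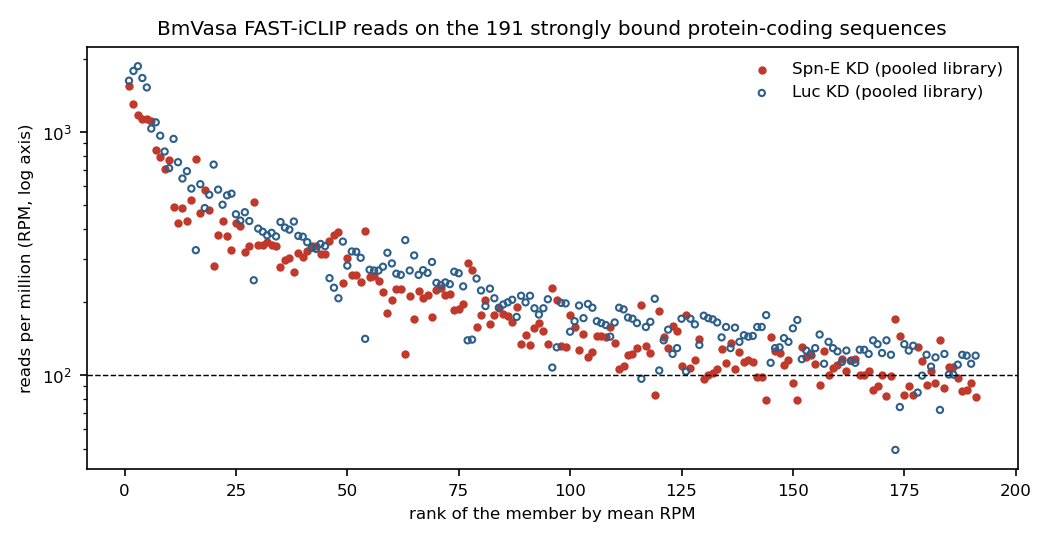
RPM on a log axis for each of the 191 members, ordered by mean RPM, with filled points for the pooled Spn-E KD library and open points for the pooled Luc KD library. The dashed line marks 100 RPM, the minimum mean that chose the members; levels drop steeply over the first 20 ranks and then run out slowly to 101 RPM.

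The highest mean belonged to KWMTBOMO05355, a model of 2159 nt with 1542 RPM in Spn-E KD and 1626 RPM in Luc KD. KWMTBOMO03005 (1747 nt) followed with 1305 RPM in Spn-E KD and 1783 RPM in Luc KD. KWMTBOMO11731 (2744 nt) had 1173 RPM in Spn-E KD and 1865 RPM in Luc KD, the highest value of any member in Luc KD. The order of these 3 depended on the library, since KWMTBOMO11731 led in Luc KD and KWMTBOMO05355 led in Spn-E KD. KWMTBOMO06732 (1718 nt) had 1133 RPM in Spn-E KD against 1668 RPM in Luc KD. KWMTBOMO11677 (4167 nt) had 1132 RPM in Spn-E KD against 1525 RPM in Luc KD. The last above 1000 RPM was the short KWMTBOMO12395 (701 nt), with 1111 RPM in Spn-E KD and 1033 RPM in Luc KD. The next 4 were KWMTBOMO15911, KWMTBOMO14732, KWMTBOMO09420 and KWMTBOMO04085, at means of 738 to 970 RPM and lengths of 1054 to 1475 nt.

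Near the minimum, the choice rested on few reads. Just inside it were KWMTBOMO07552 at 101 RPM, KWMTBOMO13960 at 103 RPM and KWMTBOMO13171 at 104 RPM. Just outside were KWMTBOMO02477 at 99.8 RPM, KWMTBOMO13041 at 99.4 RPM and KWMTBOMO03668 at 97.3 RPM. KWMTBOMO07552 had 86 reads in Spn-E KD and 122 in Luc KD, and KWMTBOMO02477 had 88 in Spn-E KD and 118 in Luc KD, so these neighbours across the line differed by less than their counting error. Of the 191 members, 162 reached 100 RPM in both libraries, 23 were under it in Spn-E KD and 6 were under it in Luc KD. Taken alone, 173 protein-coding sequences reached 100 RPM in Spn-E KD and 208 did in Luc KD.

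Length, which played no part in the choice, spread widely. The members were 364 to 17992 nt long, a 49.4-fold range, with a median of 1695 nt and quartiles of 940 and 3394 nt. Over all 14300 protein-coding sequences the median was 1235 nt. Lengths divisible by 3 made up 33.0% of members and 33.7% of protein-coding sequences, so the models were not limited to coding sequence. Among sequences under 1000 nt, 50 of 5312 were members (0.941%), and from 1000 to under 2000 nt 61 of 5804 were (1.05%). From 2000 to under 4000 nt the number was 44 of 2473 (1.78%), and at 4000 nt or more it was 36 of 711 (5.06%). The share of sequences that reached 100 RPM was thus highest among the longest models. RPM is not divided by length, so a longer sequence offers more places for a read at the same coverage.

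**Figure D2:**
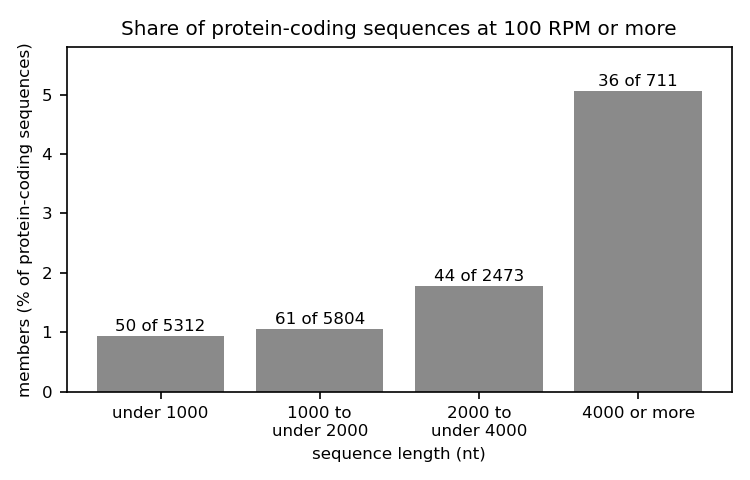
Bars give the members as a percentage of all protein-coding sequences in 4 classes of length in nt, with the numbers written above them. The share was 0.941% under 1000 nt and 5.06% at 4000 nt or more.

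Divided by length, the levels spread further. Mean RPKM, which is RPM per kb of sequence, ran from 9.55 to 1530, a 160-fold range against the 15.7-fold range of mean RPM. The median was 101 RPKM in Spn-E KD (quartiles 49.3 and 239) and 131 RPKM in Luc KD (quartiles 57.1 and 283). By class of length, the median of mean RPKM was 285 under 1000 nt, 120 from 1000 to under 2000 nt, 64.8 from 2000 to under 4000 nt and 24.4 at 4000 nt or more. Median mean RPM moved far less over the same classes, at 199, 173, 165 and 146. Across the 191 members Spearman's rho was −0.81 between length and mean RPKM and −0.11 between length and mean RPM. These describe genes of the same libraries chosen on mean RPM, which limits how mean RPM can vary with length. A negative relation of length to RPKM is built in where all sequences had to pass the same RPM. Over all 14300 protein-coding sequences rho was 0.43 between length and mean RPM and 0.072 between length and mean RPKM.

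**Figure D3:**
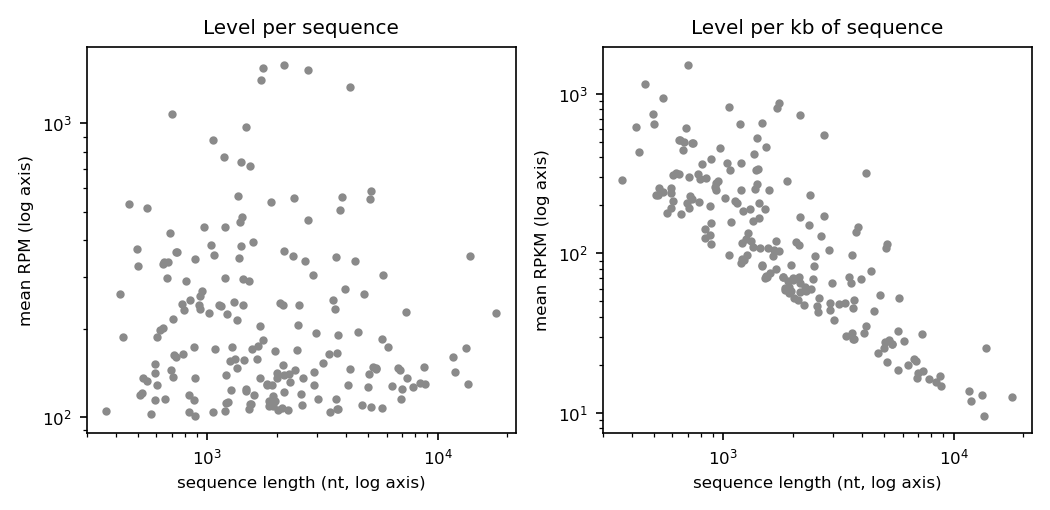
Mean RPM (left) and mean RPKM (right) of the 191 members against sequence length in nt, all on log axes, 1 point per member. In these members, chosen on mean RPM, Spearman's rho with length was −0.11 for mean RPM and −0.81 for mean RPKM. Over all 14300 protein-coding sequences it was 0.43 and 0.072.

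The members with the highest RPKM were mostly short. KWMTBOMO12395 led with 1585 RPKM in Spn-E KD and 1474 RPKM in Luc KD. Second was KWMTBOMO03951, only 459 nt long, with 1257 RPKM in Spn-E KD and 1061 RPKM in Luc KD. KWMTBOMO09230 (546 nt) had 878 RPKM in Spn-E KD and 1011 RPKM in Luc KD. They were followed by KWMTBOMO03005 and KWMTBOMO14732, which were also among the 10 highest by RPM. Of the 20 members highest by RPM, 11 were also among the 20 highest by RPKM.

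At the other end stood very long models. KWMTBOMO15946 was the longest at 17992 nt and had 186 RPM in Spn-E KD and 267 RPM in Luc KD, which came to 10.3 RPKM in Spn-E KD and 14.8 RPKM in Luc KD. KWMTBOMO03914 (13535 nt) had the lowest mean RPKM, with 8.37 in Spn-E KD and 10.7 in Luc KD. KWMTBOMO00535, KWMTBOMO09527 and KWMTBOMO01948, of 11691 to 13293 nt, made up the rest of the 5 lowest, and 13 members in all were under 20 RPKM. KWMTBOMO06355 was long too (13785 nt) but more densely covered, at 20.2 RPKM in Spn-E KD and 31.0 RPKM in Luc KD. The shortest member, KWMTBOMO12460 (364 nt), had 109 RPM in Spn-E KD and 101 RPM in Luc KD, and its RPKM was 298 in Spn-E KD and 277 in Luc KD. The other short ones, KWMTBOMO13074, KWMTBOMO07888 and KWMTBOMO10509, were 420 to 497 nt long and had 415 to 693 RPKM in Spn-E KD and 453 to 807 RPKM in Luc KD.

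Had the same number of sequences been taken by mean RPKM, which needs at least 65.5 RPKM, 130 of the 191 (68.1%) would have been the same. The 61 members left out by that choice had a median length of 4144 nt. The 61 sequences taken in their place had a median of 610 nt. The choice by RPM thus held long sequences that the choice by RPKM left out.

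The next comparison set the reads on these mRNAs in the pooled Spn-E KD library against those in the pooled Luc KD library. Most members had lower RPM in Spn-E KD: 149 were lower and 42 higher. The log2 ratio of Spn-E KD over Luc KD, with 1 RPM added to each value, had a median of −0.27, with quartiles of −0.53 and −0.076 and a range from −1.54 to 1.77. The 3544 protein-coding sequences tested, those with a mean of at least 10 RPM, had a median of −0.30, and all 4727 sequences tested had −0.24. Members therefore lay close to the protein-coding median, and on a scale centred on it their own median was 0.027, with 100 members above 0 and 91 below. Spearman's rho between mean RPM and log2 ratio was −0.00075 across the 191 genes, a set cut on mean RPM. Over all 14300 protein-coding sequences, most of them with few reads, rho was −0.19.

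The reads of each sequence were compared by an exact binomial test, two-sided and adjusted over all 4727 tested sequences by the Benjamini-Hochberg method. The test compares the pooled libraries, not the conditions. It called 18 members higher and 68 lower in Spn-E KD at an adjusted p under 0.05, against 3.74% of all tested sequences called higher and 8.23% lower. In percent, 9.42% of members were called higher and 35.6% lower. Members under 100 RPM in one library passed the minimum only through the other, so the rule itself set their direction: of the 6 under it in Luc KD 5 were called higher, and of the 23 under it in Spn-E KD 14 were called lower. Among the 162 members at 100 RPM or more in both libraries, 13 were called higher and 54 lower. Members have more reads than most tested sequences, and the 3353 tested protein-coding sequences under 100 RPM had medians of only 17 reads in Spn-E KD and 21 in Luc KD, so the test could call smaller changes in members. By size alone, 16 members were at least 1.5-fold higher and 40 at least 1.5-fold lower (8.38% and 20.9%), against 10.1% and 27% of all tested sequences. With 100 RPM required in both libraries, 11 of 162 members were at least 1.5-fold higher and 28 at least 1.5-fold lower. All tested sequences had medians of only 20 reads in Spn-E KD and 23 in Luc KD. Counting error alone moves ratios further at that depth, so these shares do not show that members changed less. A 2-fold change was reached by 6 of the 191 members upward and 5 downward, against 3.13% and 9.54% of all tested sequences. Among the 6, KWMTBOMO05421 was a member only through Spn-E KD. Among the 5, KWMTBOMO14716, KWMTBOMO04610 and KWMTBOMO05728 were members only through Luc KD. The rule set the direction of these. The binomial test takes no variation between libraries other than counting error. When edgeR's exact test was given an assumed coefficient of variation between the pooled libraries of 0.1, it called 11 members higher and 13 lower, against 1.57% and 2.48% of all tested sequences. At 0.2 it called 0 members, with 19 at an unadjusted p under 0.05, against 0% of all tested sequences higher and 0.169% lower. The calls at 0.1 also hold members whose direction the rule set. Among the higher these were KWMTBOMO05421, KWMTBOMO16166, KWMTBOMO14523 and KWMTBOMO15468. Among the lower they were KWMTBOMO14716, KWMTBOMO04610, KWMTBOMO05728 and KWMTBOMO04917.

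The direction of the calls depended on how the libraries were scaled. After centring on the tested protein-coding sequences, a shift of 0.30 on the log2 scale, 29 members were called higher and 20 lower, against 6.66% and 2.94% of all tested sequences. All 18 members called higher were also called higher after centring. Of the 68 called lower, 20 were still called lower, 48 were no longer called, and 11 members not called before became higher. Of the calls in members, 59.2% were then higher, in place of 20.9%. Of those in all tested protein-coding sequences, 55.1% were, in place of 13.4%. This move came with the centring and was not particular to the members. TMM scaling gave 25 higher and 27 lower, against 5.92% and 3.53% of all tested sequences. Scaling to protein-coding reads gave 26 and 24, against 6.3% and 3.36%.

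**Figure D4:**
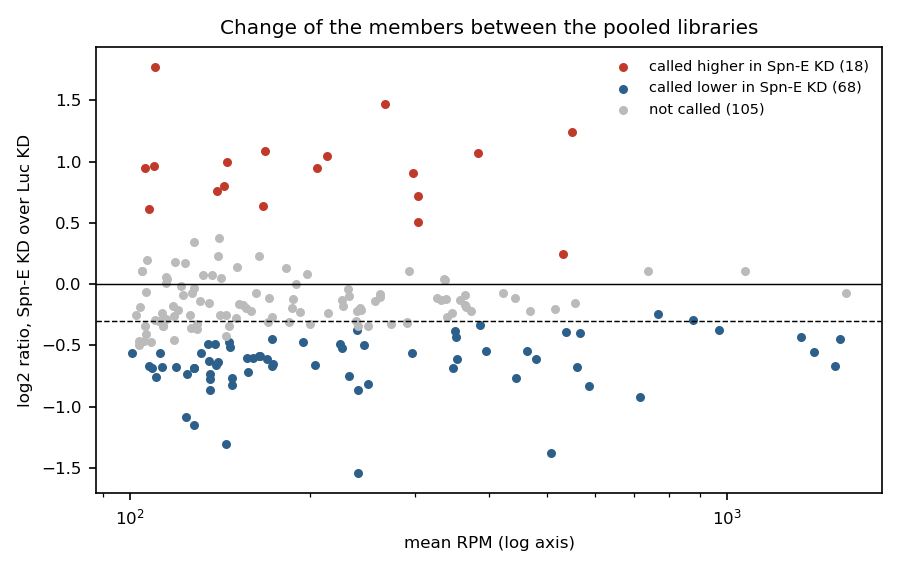
Log2 ratio of Spn-E KD over Luc KD against mean RPM (log axis) for the 191 members, coloured by the exact binomial call with 18 higher, 68 lower and 105 not called. The solid line is 0 and the dashed line the median of tested protein-coding sequences, −0.30, and members lie on both sides of the dashed line at every level.

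The largest rise was that of KWMTBOMO05421 (4682 nt), with 181 reads in Spn-E KD and 50 in Luc KD, or 171 RPM against 49.4 RPM. Its log2 ratio was 1.77 (95% Clopper-Pearson interval 1.33 to 2.27), and it had the lowest Luc KD level of all members. KWMTBOMO01783 (947 nt) had 394 RPM in Spn-E KD and 141 RPM in Luc KD, a log2 ratio of 1.47 (1.20 to 1.76). KWMTBOMO14510 (5065 nt) stood out for its level, with 774 RPM in Spn-E KD and 327 RPM in Luc KD and a log2 ratio of 1.24 (1.06 to 1.43; adjusted p = 6.20e-41, exact binomial test). Its rank by mean RPM was 16, and no member above it was called higher in Spn-E KD under the authors' scaling. KWMTBOMO15864 (1398 nt) had 518 RPM in Spn-E KD and 246 RPM in Luc KD, a log2 ratio of 1.07 (0.86 to 1.30).

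Of the 10 largest rises, the remaining 6 were KWMTBOMO15574, KWMTBOMO03468, KWMTBOMO16166, KWMTBOMO14523, KWMTBOMO07535 and KWMTBOMO15468. They had 140 to 289 RPM in Spn-E KD and 72.1 to 140 RPM in Luc KD, with log2 ratios of 0.94 to 1.08. Of the 10, KWMTBOMO05421, KWMTBOMO16166, KWMTBOMO14523 and KWMTBOMO15468 were under 100 RPM in Luc KD and were members only through Spn-E KD, so their direction is no finding. The highly covered KWMTBOMO03951 was the smallest rise called, at 0.24 (0.070 to 0.42; adjusted p = 0.0476, exact binomial test). This call was lost when all sequences with a read were tested (adjusted p = 0.153, exact binomial test) and with edgeR at an assumed variation of 0.1 (adjusted p = 0.686). Members called higher had a median length of 2339 nt, and 12 of the 18 were at least 2000 nt long, against 80 of all 191. KWMTBOMO05421, KWMTBOMO16166, KWMTBOMO14523, KWMTBOMO15468 and KWMTBOMO08260 are among these 12, and all 5 were members only through Spn-E KD. The rule set their direction, so the lengths of members called higher lean on it. Members called lower had a median of 1903 nt, and 32 of the 68 were at least 2000 nt long. Of the 68, 14 were members only through Luc KD. Together the 18 called higher took 11.9% of all member reads in Spn-E KD and 5.42% in Luc KD, and the 68 called lower took 39.4% in Spn-E KD and 49.9% in Luc KD. These sums follow from the calls and are given as a description.

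The largest fall was that of KWMTBOMO01504 (2510 nt), with 123 RPM in Spn-E KD and 360 RPM in Luc KD and a log2 ratio of −1.54 (−1.85 to −1.26). KWMTBOMO09183 (3758 nt) had 281 RPM in Spn-E KD and 735 RPM in Luc KD, a log2 ratio of −1.38 (−1.58 to −1.19; adjusted p = 2.19e-46, exact binomial test). KWMTBOMO14716 (695 nt) had 83.1 RPM in Spn-E KD and 206 RPM in Luc KD, a log2 ratio of −1.30 (−1.69 to −0.95). KWMTBOMO04610 (2913 nt) and KWMTBOMO05728 (7031 nt) were both at 79.3 RPM in Spn-E KD, the lowest level there, against 177 RPM and 169 RPM in Luc KD. KWMTBOMO11083 (1533 nt), of rank 11 by mean RPM, had 494 RPM in Spn-E KD and 937 RPM in Luc KD, a log2 ratio of −0.92 (−1.08 to −0.77). The other 4 of the 10 largest falls, KWMTBOMO04917, KWMTBOMO02368, KWMTBOMO00601 and KWMTBOMO04324, had log2 ratios of −0.86 to −0.82. All 10 were also called lower after centring. KWMTBOMO14716, KWMTBOMO04610, KWMTBOMO05728 and KWMTBOMO04917 were under 100 RPM in Spn-E KD and were members only through Luc KD, so the direction of these 4 was set by the rule.

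**Figure D5:**
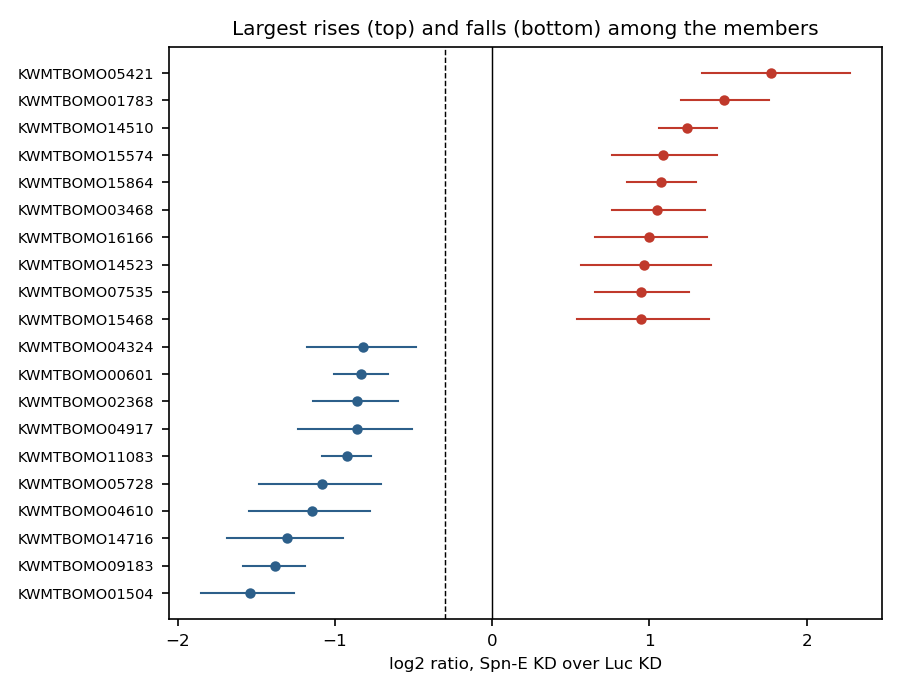
Log2 ratio of Spn-E KD over Luc KD for the 10 largest rises and 10 largest falls among called members, with 95% Clopper-Pearson intervals that cover counting error only. The solid line is 0 and the dashed line the protein-coding median of −0.30; the rises run from 0.94 to 1.77 and the falls from −1.54 to −0.82.

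None of the 10 most strongly bound members was among the 10 largest rises or the 10 largest falls. Under the authors' scaling 7 were called lower and the other 3, KWMTBOMO05355, KWMTBOMO12395 and KWMTBOMO04085, were not called, with log2 ratios of −0.076 (−0.18 to 0.024), 0.10 (−0.017 to 0.23) and 0.11 (−0.038 to 0.26). The strongest fall in this set was that of KWMTBOMO11731 at −0.67 (−0.77 to −0.56). After centring, KWMTBOMO03005, KWMTBOMO11731 and KWMTBOMO06732 were still called lower, and the 3 that had not been called were called higher. KWMTBOMO14732 and KWMTBOMO09420, called lower under the authors' scaling, were then at 0.0047 and 0.054 and not called. Together the 10 took 11118 reads in Spn-E KD and 13266 in Luc KD, a log2 ratio of summed RPM of −0.32 (−0.36 to −0.28). By level, the median log2 ratio was −0.32 in the 81 members from 100 to under 150 RPM, −0.23 in the 63 from 150 to under 300 RPM and −0.23 in the 47 above. Calls fell into every class, with 7 higher and 26 lower in the first, 6 and 20 in the second and 5 and 22 in the highest. All members under 100 RPM in one library lay in the first class. The rule thus set the direction of 5 of its 7 higher calls and 14 of its 26 lower calls. Over all tested sequences, most of them at lower depth, 3.74% were called higher and 8.23% lower.

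By length, members under 1000 nt were the least shifted, with a median log2 ratio of −0.15 and 3 of 50 called higher and 5 lower. From 1000 to under 2000 nt the median was −0.37, and 3 of 61 were called higher and 31 lower. From 2000 to under 4000 nt it was −0.22, with 8 of 44 higher and 16 lower, and at 4000 nt or more −0.36, with 4 of 36 higher and 16 lower. Some of these calls were set by the rule. KWMTBOMO14523, KWMTBOMO15468 and KWMTBOMO08260, from 2000 to under 4000 nt, were called higher and were members only through Spn-E KD. The same held for KWMTBOMO05421 and KWMTBOMO16166 at 4000 nt or more. Members only through Luc KD made up 14 of the lower calls, spread over every length class. All tested protein-coding sequences in the same classes had medians of −0.16, −0.28, −0.35 and −0.35. Of these, 1.53%, 0.580%, 1.48% and 1.39% were called higher and 4.90%, 7.61%, 6.86% and 11.1% lower, at the lower depth of most of them. Summed RPM of the members under 1000 nt had a log2 ratio of −0.091 (−0.13 to −0.055), and of those of 4000 nt or more −0.24 (−0.29 to −0.20). As a share of all protein-coding reads, the members under 1000 nt took 7.99% in Spn-E KD (7.86 to 8.13) and 7.07% in Luc KD (6.95 to 7.19). Spearman's rho between length and log2 ratio across the 191 members was −0.20.

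Transposon-annotated sequences chosen by the same minimum were set beside the members. There were 215 with a mean of at least 100 RPM. Their medians of 267 reads in Spn-E KD and 242 in Luc KD were above the members' 168 and 191. Their median length was 3726 nt and their median of mean RPKM 81.9, against 1695 nt and 113 RPKM for the members. Their median log2 ratio was 0.093 with quartiles of −0.42 and 0.56, so their ratios spread more widely than those of the members. The test called 77 of them higher and 66 lower, or 66.5% in all, against 45.0% of members and 12.0% of all tested sequences. At their greater depth it could call smaller changes than in members. Their levels reached down to 55.7 RPM in Spn-E KD and 66.2 RPM in Luc KD. Those under 100 RPM in one library passed only through the other, so the rule set their direction, as in the members. Whether the lists differ beyond the spread between replicates was not tested.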

How the data were processed

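BmVasa FAST-iCLIP was carried out on 4 samples, 2 of Spn-E KD and 2 of Luc KD, grouped by their labels. Adaptors were trimmed with Cutadapt 4.0, reads under 27 nt dropped, and PCR duplicates collapsed by random barcode. STAR 2.7.9a placed reads on the SilkBase assembly, and Bowtie 1.3.1 assigned the mapped reads to gene models and transposons with up to 2 mismatches, in random and multiple counting modes. Reads from near-identical sequences may therefore be split or shared. The deposited read counts are sense reads taken by the authors with SAMtools 1.15, replicates merged. The deposited RPM values are those counts per 1000000 genome-mapped reads, and the deposited RPKM values are RPM per kb; Length is another deposited column.

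From these columns the log2 ratio (pseudocount 1 RPM), exact binomial tests over sequences averaging 10 RPM or more (Benjamini-Hochberg, 0.05) and counting intervals were computed with scipy 1.17.1 and statsmodels 0.14.6, on tables read by pandas 2.3.3 in Python 3.11.15. TMM factors came from edgeR 4.0.16 in R 4.3.3. Its exact test was also run with the variation between pooled libraries set to 0.1 or 0.2, as a coefficient of variation. Other alternatives were the scaling, the pseudocount, the minimum RPM and the sequences tested. The code was tested on simulated data. All 191 members passed the minimum for testing, since the rule that chose them is stricter. Named sequences were the 10 highest by RPM, the 5 highest and lowest by RPKM, the 5 shortest and longest, the 10 largest called rises and falls, and 3 on each side of 100 RPM. The members and lists were chosen with earlier results of these data known. Planned gene lists were not used, as no identifier had a gene name.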

Additional observations from a re-analysis of the deposited data

How the results depend on the processing

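No paired analysis was possible because replicates of each group had been merged in the deposited table, and for the same reason fits without single replicates and DESeq2 were not run. The 18 higher and 68 lower calls became 29 and 20 after centring on tested protein-coding sequences. Lower calls were 27 under TMM scaling and 24 when scaled to protein-coding reads. With an assumed variation of 0.1 between pooled libraries edgeR's exact test called 11 higher and 13 lower. At 0.2 it called 0 and 0, with 19 members at an unadjusted p under 0.05. The calls at 0.1 hold members that passed 100 RPM only through the library where they were higher. With all sequences with a read tested the binomial calls were 16 and 59, and the share over all those sequences was not computed. With 100 RPM required in each library the calls were 13 and 54. From 200 RPM, 80 members gave 9 higher and 32 lower calls, and from 50 RPM, 494 gave 26 higher and 115 lower. For these choices of members the shares of all tested sequences stayed 3.74% higher and 8.23% lower, mostly at lower depth. The 56 members past 1.5-fold became 25, 28 and 27 under the 3 scalings above, 21 from 200 RPM and 137 from 50 RPM. Under the authors' scaling 10.1% of all tested sequences were past 1.5-fold upward and 27% downward. These shares were not computed under the other scalings. The median log2 ratio of −0.27 turned to 0.027 after centring and was −0.028 under TMM scaling and −0.0027 when scaled to protein-coding reads. These shifts follow from the scaling itself.

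The lower share of gene-library reads in Spn-E KD, by 2.37 points, was −1.71 points from 200 RPM, −3.39 from 50 RPM, −2.17 with 100 RPM required in each library and −1.67 without the 10 highest members. Leaving the most covered transposon sequence out of the gene-library reads, an alternative chosen after seeing the data, gave −0.99. The share of protein-coding reads stayed within its interval under the first 4 of these. Among 45 named members, KWMTBOMO05355 turned to 0.22, 0.17 and 0.19 after centring, under TMM scaling and when scaled to protein-coding reads. KWMTBOMO14732 turned to 0.0047 after centring, and KWMTBOMO09420 to 0.054 after centring and 0.024 when scaled to protein-coding reads. Over 7 alternatives, calls of named members were lost 64 times and gained 9 times, with 11 of the losses at an assumed variation of 0.1 and 32 at 0.2.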

Other observations

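Some members carry consecutive identifiers, a pattern noticed after the values were seen. There were 8 such pairs among the 191 members, and in 3 of them both sequences were called in the same direction, lower in Spn-E KD. Of all members 35.6% were called lower, and of all tested sequences 8.23%. How many such pairs chance gives was not tested. KWMTBOMO13409 (843 nt) had 192 reads in Spn-E KD and 323 in Luc KD, and KWMTBOMO13410 (527 nt) had 106 in Spn-E KD and 174 in Luc KD, with log2 ratios of −0.81 and −0.77. KWMTBOMO05464 and KWMTBOMO05465 had log2 ratios of −0.72 and −0.47, and KWMTBOMO14715 and KWMTBOMO14716 had −0.50 and −1.30. KWMTBOMO11677, the 5th member by RPM, stands beside KWMTBOMO11678, with log2 ratios of −0.43 and −0.50, of which the second was not called. In all 8 pairs both log2 ratios were below 0, as were those of 149 of the 191 members. KWMTBOMO14716, KWMTBOMO11678 and KWMTBOMO06908, which is in another pair, were members only through Luc KD. The rule set their direction. Positions and sequences were not analysed here, so whether the sequences of a pair lie side by side or share reads was not tested.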
